A study of Mus musculus with 19 samples.

Results

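The atherogenic diet was compared with chow in the livers of 5LO KO mice on the B6 background, which lack 5-lipoxygenase, the enzyme that starts leukotriene synthesis and the product of Alox5. The comparison took the Cy5 channel of the 10 knockout mice among the 19 mice of the study, chosen by genotype and diet alone: 5 on normal chow and 5 on an atherogenic chow high in fat, cholesterol and cholate. All mice were 20 weeks old and had been on their diet for 16 weeks. The sex of the mice is not stated in the labels. Total RNA of whole liver was amplified in 2 rounds from 100 ng and hybridised on arrays of 2 colours, with 1 mouse in Cy5 and a pool of B6 WT livers of the same diet in Cy3 (5 mice on chow, 4 on the atherogenic diet). Because each diet had its own pool, the ratio of mouse to pool does not carry the effect of the diet, and the normalised log2 intensity of the mouse channel was compared instead. The 9 B6 WT mice, 5 on chow and 4 on the atherogenic diet, served for the comparison of the diet effect between genotypes.

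Cholesterol in the liver is sensed on both sides. When membrane cholesterol is low, the transcription factor SREBP2 switches on the enzymes of cholesterol synthesis, and when cholesterol is plentiful, oxysterols activate the nuclear receptor LXR, which switches on cholesterol exporters. Bile acids such as cholate repress their own synthesis through the nuclear receptor FXR. Macrophages of the liver comprise resident Kupffer cells and cells derived from blood monocytes, and lipid-laden macrophages in liver, fat and arteries share a programme of lysosomal, lipid-handling and matrix-degrading genes. Leukotrienes are lipid mediators made by myeloid cells that attract and activate leukocytes.

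The arrays of the 10 knockout mice measured between 22763 and 23510 of 23568 probes, and 23344 probes had at least 3 values in each group and were tested. Each mouse carries a letter within its group, which is a name only. The table held no flag for detection above background, and the number of arrays limits the precision. Deposited intensities of at least 0.01 had at most 2 decimals and 55.3% of all intensities lay below 0.1, so values of dim probes were coarse. Chow mouse D stood apart: the SD of its log2 ratios to the pool was 1.01, against 0.318 to 0.538 in the other chow knockouts, and it correlated with them at 0.933 to 0.962, while they correlated with one another at 0.985 to 0.990. Without it 1804 probes were called, against 2243 with it. Alox5, the gene targeted in the knockout, was read by 1 dim probe, and its difference between genotypes did not pass an exact test on either diet. On chow it measured -4.35 ± 0.45 in knockout and -4.56 ± 0.20 in wild type (mean ± SD, n = 5 each; exact two-sided permutation p = 0.476, smallest possible 0.00794), and on the atherogenic diet -3.80 ± 0.27 and -4.14 ± 0.15 (n = 4 each; exact two-sided permutation p = 0.0857, smallest possible 0.0286). Where the probe lies in the transcript is unknown here, so it does not check the labels.

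On the atherogenic diet, genes of macrophages, cholesterol export and collagen matrix rose in knockout liver, and genes of cholesterol synthesis fell. In whole liver, more cells of a type and more RNA per cell cannot be told apart. Of 18606 genes, each read by its brightest probe, limma called 1022 higher (5.49%) and 899 lower (4.83%) at a Benjamini-Hochberg adjusted p under 0.05, 1921 in all (10.3%). At least a 2-fold change was measured for 501 of the higher and 138 of the lower genes. The median difference over all genes was -0.01 on the log2 scale. The values of the diets did not overlap for 881 genes on the higher side (4.74%) and 813 on the lower side (4.37%), together 9.1%. In probes, 1222 were higher (5.23%) and 1021 lower (4.37%), 2243 in all (9.61%), and 6324 had an unadjusted p below 0.05. No overlap was seen for 4.5% of probes on the higher and 3.9% on the lower side, together 8.4%. The count of called probes fell to 1159 without chow mouse B, to 1246 without atherogenic mouse A and to 1328 without atherogenic mouse E, and was 845 when the knockout mice were fitted alone. Differences below are log2 values of the atherogenic diet minus chow, levels are normalised log2 Cy5 intensities, and adjusted p-values are those of limma over all probes. Where leaving out 1 mouse ended a gene's call, the highest adjusted p so reached is given with that mouse. For most such genes the omission of other single mice ended the call too. Ostb and Cyp2e1 lost it without any of 16 mice, wild-type mice among them. Counts of list members below stand beside these shares: 5.49% of all genes called higher and 4.83% called lower.

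Genes of sterol synthesis and uptake fell. Of 25 measured, 11 were lower and 0 higher, with a median difference of -0.61, against a median of -0.01 and 4.83% lower over all genes. The promoters of the 4 called genes with the lowest p that have one in RefSeq (GRCm38.p6) are shown because the sterol response is known to act at promoters, through SREBP2 together with the factor NF-Y. Each line gives 250 bases up to the start of the gene, 5′ to 3′ on the gene's strand, and capitals mark matches to TCACNCCA, a form of the sterol regulatory element, and to CCAAT, the NF-Y box, on either strand. Tm7sf2 lies at chr19:6067851-6068100 on the minus strand, Srebf2 at chr15:82147019-82147268, Insig1 at chr5:28071162-28071411 and Pmvk, the first of 2 promoters, at chr3:89454291-89454540 on the plus strand.
Tm7sf2: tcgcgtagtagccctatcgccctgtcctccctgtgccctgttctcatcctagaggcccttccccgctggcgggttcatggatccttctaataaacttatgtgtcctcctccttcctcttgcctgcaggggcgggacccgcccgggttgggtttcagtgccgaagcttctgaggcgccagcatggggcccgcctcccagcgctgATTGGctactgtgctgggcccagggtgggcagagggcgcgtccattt
Srebf2: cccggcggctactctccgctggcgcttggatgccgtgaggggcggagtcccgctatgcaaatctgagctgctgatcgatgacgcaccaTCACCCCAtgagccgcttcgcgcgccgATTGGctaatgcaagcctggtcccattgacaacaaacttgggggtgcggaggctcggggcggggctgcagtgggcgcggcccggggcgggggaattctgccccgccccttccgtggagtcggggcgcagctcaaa
Insig1: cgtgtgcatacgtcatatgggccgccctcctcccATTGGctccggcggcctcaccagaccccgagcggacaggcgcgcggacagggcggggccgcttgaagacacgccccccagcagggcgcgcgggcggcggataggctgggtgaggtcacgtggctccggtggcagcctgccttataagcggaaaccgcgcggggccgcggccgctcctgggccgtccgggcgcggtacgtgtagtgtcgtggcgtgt
Pmvk: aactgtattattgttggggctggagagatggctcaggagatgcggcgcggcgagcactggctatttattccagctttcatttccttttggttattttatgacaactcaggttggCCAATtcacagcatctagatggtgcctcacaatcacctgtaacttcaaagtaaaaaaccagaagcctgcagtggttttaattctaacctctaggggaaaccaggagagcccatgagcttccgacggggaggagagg

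Each of these promoters held 1 match to CCAAT, and that of Srebf2 also held TCACCCCA, whose first base lies 162 bases before the start. A CCAAT match was found in 16 of the 17 sterol genes that had a promoter in the table (94.1%), and in 37.5% of all 27025 genes with a promoter. The longer sterol element TCACNCCAC was found in 1 of the 17 (5.88%), Hmgcs1, against 1.22% of all these genes, and TCACNCCA, which it contains and which was searched after that count was seen, in 3 (17.6%), against 4.204% of all these genes. A match is a string of letters and not a site shown to be bound.

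Sqle, squalene epoxidase, which makes the first oxygenated sterol precursor, fell furthest among the sterol genes. Its levels on chow were -1.60, -0.52, -0.32, -1.02 and -4.81 in mice A to E, and on the atherogenic diet -5.49, -5.46, -5.38, -5.50 and -5.50. All atherogenic mice lay below all chow mice, and chow mouse E lay close to them. The difference was -3.81 (SE 0.57, adjusted p = 0.000284). The deposited intensity had a median of 0.39 on chow and of 0.02 on the atherogenic diet, where the rounding leaves few steps. Tm7sf2, a sterol reductase of the late pathway, stood at 0.01, 0.24, 0.78, 1.14 and -1.02 on chow and at -2.04, -1.67, -1.20, -1.92 and -2.55 on the atherogenic diet. The groups did not overlap, and the gene fell by 2.10 (SE 0.32, adjusted p = 0.000315).

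Both regulators of the pathway on the list fell as well. Srebf2, which encodes SREBP2 itself, went from 0.72, 1.51, 1.38, 1.91 and 0.81 on chow to -0.00, -0.10, 0.15, 0.28 and -0.20. Insig1, which holds the SREBP precursor in the endoplasmic reticulum when sterols are high and is itself an SREBP target, went from 2.85, 3.76, 3.21, 3.67 and 2.47 to 1.64, 2.10, 1.95, 2.26 and 1.83. Neither gene overlapped between diets, with differences of -1.24 (SE 0.19, adjusted p = 0.000374) and -1.23 (SE 0.23, adjusted p = 0.0026).

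Further steps of the pathway were lower in the knockout livers on the diet. Fdft1, squalene synthase, differed by -0.78 (SE 0.19, adjusted p = 0.0128), Fdps, which makes farnesyl diphosphate, by -2.09 (SE 0.50, adjusted p = 0.0134), and Pmvk, phosphomevalonate kinase, by -0.92 (SE 0.23, adjusted p = 0.0163). Chow and atherogenic mice overlapped at Fdft1 and Fdps and not at Pmvk. Sc4mol, a sterol methyl oxidase (-1.15, adjusted p = 0.0411), Hsd17b7, a sterol ketoreductase (-0.62, adjusted p = 0.0429), Mvd, mevalonate diphosphate decarboxylase (-0.54, adjusted p = 0.0441), and Cyp51, lanosterol demethylase (-1.43, adjusted p = 0.0468), passed narrowly. These calls ended on leaving out any 1 of several mice: 9 mice for Sc4mol, 9 for Hsd17b7, 13 for Mvd and 15 for Cyp51. The adjusted p reached 0.110 for Sc4mol, 0.115 for Mvd and 0.111 for Cyp51 without chow mouse B, and 0.121 for Hsd17b7 without atherogenic mouse E. At Cyp51 chow mice D and E stood at -4.38 and -4.40, among the atherogenic mice, whose range was -4.44 to -4.23.

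Hmgcs1, HMG-CoA synthase, did not pass, at -0.89 (adjusted p = 0.079). All 25 differences were below 0, the smallest in size being -0.11 for Acat2. The sum of normalised intensities over the list, on the linear scale, lay between 64.9 and 107 in chow mice and between 48.6 and 58.8 in atherogenic mice. The count of 11 was also 11 without chow mouse D, and was 7 without chow mouse B, chow mouse C, atherogenic mouse E or wild-type chow mouse D. It was 4 when the 10 knockout mice were fitted alone.

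LXR targets and cholesterol exporters moved the other way. Of 14 measured, 8 were higher and 0 lower, with a median of 0.91. Abcg5, which with Abcg8 forms the pump that sends cholesterol into bile, stood at 1.42, 1.67, 1.31, 1.85 and 1.69 on chow and at 3.77, 3.70, 3.42, 3.03 and 4.21 on the atherogenic diet. Abcg8 went from -3.25, -3.65, -3.55, -4.92 and -3.80 to -1.74, -1.91, -2.44, -2.41 and -1.30. Both partners separated the diets in every mouse. They rose by 2.03 (SE 0.20, adjusted p = 6.1e-06) and 1.87 (SE 0.27, adjusted p = 0.000252).

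Abcg1, a cholesterol exporter of macrophages and other cells, rose most on the list. Its levels were -1.30, -1.99, -1.26, -3.82 and -1.37 on chow, with mouse D lowest, and 0.55, 1.03, 0.63, 1.25 and 1.13 on the atherogenic diet. The rise was 2.87 (SE 0.36, adjusted p = 6.04e-05). Srebf1, whose product drives fatty acid synthesis and which LXR induces, went from 0.56, 0.96, 0.53, 1.45 and 0.66 to 3.41, 2.49, 2.74, 2.13 and 3.11, so that SREBP1 and SREBP2 messages moved in opposite directions in the same livers. Its rise was 1.95 (SE 0.26, adjusted p = 8.93e-05).

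Soat1, which esterifies cholesterol for storage, rose by 1.54 (SE 0.20, adjusted p = 8.93e-05), and Scarb1, the HDL receptor, by 0.77 (SE 0.19, adjusted p = 0.0145). Mylip, a ubiquitin ligase induced by LXR, rose by 1.31 (adjusted p = 0.035; 0.0754 without atherogenic mouse A), and Abca1, the exporter that loads apolipoprotein A-I, by 1.06 (adjusted p = 0.0448; 0.128 without atherogenic mouse E). The messages of the receptors themselves did not pass: Nr1h3, LXR alpha, measured -0.13 (adjusted p = 0.53) and Nr1h2, LXR beta, -0.46 (adjusted p = 0.08). Soat2, the cholesterol esterifying enzyme of hepatocytes, measured 0.07 (adjusted p = 0.82) and Npc1l1, the sterol uptake protein, -0.39 (adjusted p = 0.29). The list's count was 8 without chow mouse D and between 6 and 8 without any 1 mouse, and 5 with the knockout mice fitted alone.

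Among 12 bile acid synthesis genes 1 was lower and 0 higher, and the median was 0.34. The summed intensity of the list was 69.7 to 156 on chow and 141 to 216 on the atherogenic diet, and 2 genes were called higher without chow mouse A or chow mouse C. Cyp8b1, the sterol 12-alpha-hydroxylase that decides how much cholic acid is made, stood at -0.89, -1.61, -0.56, -2.31 and -0.72 on chow and at -4.17, -5.00, -5.88, -4.92 and -5.05 on the atherogenic diet. The groups lay far apart, and the gene fell by 3.79 (SE 0.33, adjusted p = 1.7e-06), which is 13.8-fold. The deposited intensity of Cyp8b1 had a median of 0.51 on chow and of 0.04 on the atherogenic diet, where the rounding leaves few steps. Cyp7a1, the rate-limiting enzyme of bile acid synthesis, overlapped widely between diets. It stood at -3.25, -3.01, -2.36, -2.12 and -2.31 on chow and at -2.05, -2.88, -3.80, -3.78 and -1.83 on the atherogenic diet, a difference of -0.26 with a 95% interval of ± 0.98 (adjusted p = 0.761). Akr1d1, the steroid 5-beta-reductase, missed the threshold at 1.49 (adjusted p = 0.0501), and Cyp27a1, sterol 27-hydroxylase, measured 0.43 (adjusted p = 0.079).

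Of 15 genes of bile acid sensing, transport and hydroxylation, 3 were higher and 0 lower, with a median of 0.31. Among all genes 5.49% were higher and 4.83% lower. Cyp3a11, a P450 of bile acid and drug hydroxylation, rose by 1.96 (adjusted p = 0.0427; 0.121 without atherogenic mouse E), Slco1a4, an organic anion uptake transporter, by 1.28 (adjusted p = 0.0277; 0.0691 without chow mouse B) and Ostb, a subunit of the basolateral bile acid exporter, by 1.06 (adjusted p = 0.0493; 0.121 without chow mouse E). All of them overlapped between diets, and the count was 0 without chow mouse B, atherogenic mouse B or atherogenic mouse E. It was 1 without chow mouse E, atherogenic mouse A or wild-type chow mouse C or D. The FXR gene Nr1h4 (0.07), its target Nr0b2, the repressor SHP (0.55), and the canalicular bile salt pump Abcb11 (0.42) did not pass, with adjusted p-values of 0.83, 0.23 and 0.13.

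**Figure D1:**
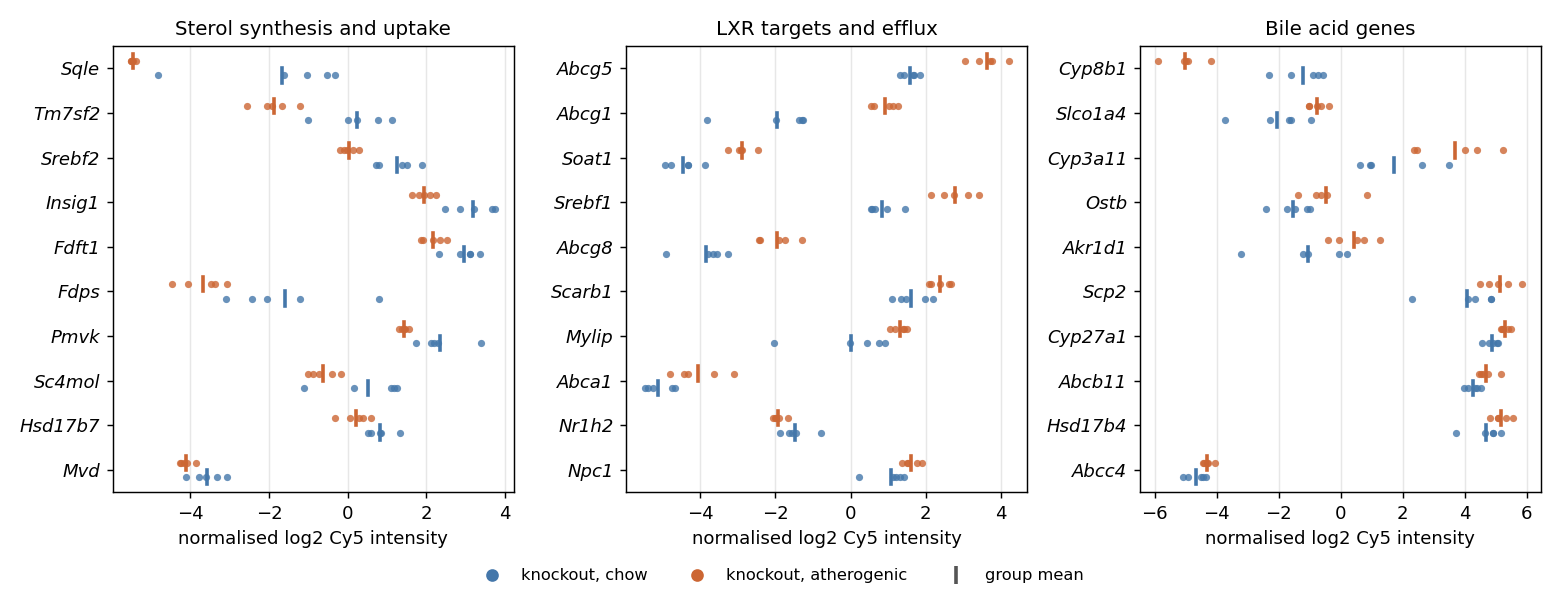
Normalised log2 Cy5 intensity of the 10 genes with the lowest p in each of 3 groups, sterol synthesis, LXR targets, and bile acid genes of both bile acid lists (x axis), with 1 point per knockout mouse, blue for chow and orange for the atherogenic diet, and a bar at each group's mean. The mean of the atherogenic mice lies to the left for the sterol genes and for Cyp8b1 and to the right for the called LXR targets. The groups overlap for some sterol genes, among them Fdft1 and Fdps, for some LXR targets and for most other bile acid genes.

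Fatty acid synthesis genes gave few calls in either direction. Of 20 genes 2 were higher and 1 lower, with a median of -0.01. Scd1, the desaturase that makes oleate, went from -1.72, -2.57, -2.44, -4.33 and -3.39 on chow to -0.25, 0.12, -0.33, -0.57 and -0.44, with no overlap, and rose by 2.60 (SE 0.34, adjusted p = 8.81e-05). Fasn, fatty acid synthase, rose by 0.72 (adjusted p = 0.0328; 0.0838 without chow mouse E), and Fads2, a desaturase of polyunsaturated fatty acids, fell by 0.81 (adjusted p = 0.0263; 0.0758 without atherogenic mouse E). Acaca and Acly, which supply malonyl-CoA and acetyl-CoA, measured 0.16 and 0.19 (adjusted p = 0.62 and 0.41). The count of higher genes was 1 without chow mouse E or any of atherogenic mice A, C, D and E.

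Of 18 genes of fatty acid oxidation and PPAR alpha targets, 4 were lower and 1 higher, with a median of -0.30. Bdh1, which makes the ketone body beta-hydroxybutyrate, fell by 0.82 (SE 0.15, adjusted p = 0.00178), and Cyp4a14, a fatty acid hydroxylase induced by PPAR alpha, by 1.14 (SE 0.23, adjusted p = 0.00514). The fasting hormone Fgf21 fell by 0.99 (adjusted p = 0.0233; 0.061 without chow mouse B), and Hadha, of the mitochondrial trifunctional protein, by 0.43 (adjusted p = 0.0238; 0.0672 without chow mouse B). Aldh3a2, a fatty aldehyde dehydrogenase, rose by 0.73 (adjusted p = 0.0358; 0.106 without atherogenic mouse A). The lower count was 2 without chow mouse B or atherogenic mouse B, 6 without chow mouse D, and 1 with median centring of the arrays. Cpt1a, the gate of mitochondrial fatty acid uptake, measured 0.07 (adjusted p = 0.83).

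Among 11 lipid droplet and fatty acid uptake genes Lpl rose and G0s2 fell. G0s2, an inhibitor of triglyceride lipase, stood at 4.76, 5.07, 5.03, 4.86 and 5.09 on chow and at 3.70, 3.40, 4.01, 3.31 and 3.75 on the atherogenic diet. Chow mice lay within a narrow range above all atherogenic mice, and the fall was 1.33 (SE 0.21, adjusted p = 0.000597). Cd36, a fatty acid transporter, measured 0.23 (adjusted p = 0.43).

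Markers of lipid-associated macrophages showed the most uniform change of the lists: all 14 measured markers were called higher, with a median of 1.62, against 5.49% of all genes called higher. Trem2, a lipid-sensing receptor that defines these cells, stood at -2.52, -2.54, -2.05, -1.04 and 0.13 on chow and at 1.54, 2.89, 1.43, 3.03 and 1.82 on the atherogenic diet. Mmp12, macrophage elastase, went from -5.40, -6.32, -4.07, -5.70 and -2.36 to -0.88, 0.06, -0.60, 0.15 and 0.31. Lpl, lipoprotein lipase, went from -0.40, -1.25, -0.67, -0.80 and 1.24 to 3.44, 3.48, 2.72, 3.20 and 4.59. Chow mouse E was the highest chow mouse for all these genes, and it still lay below every atherogenic mouse.

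The differences were 3.75 for Trem2 (SE 0.53, adjusted p = 0.000177), 4.58 for Mmp12 (SE 0.55, adjusted p = 3.77e-05) and 3.86 for Lpl (SE 0.41, adjusted p = 1.09e-05). Cd63, a tetraspanin of late endosomes, rose by 2.45 (SE 0.23, adjusted p = 3.16e-06), from a chow range of -0.07 to 1.20 to an atherogenic range of 2.48 to 3.35. Ctss, the lysosomal protease cathepsin S, rose by 2.38 (SE 0.33, adjusted p = 0.000148) and Itgax, which encodes CD11c, by 2.33 (SE 0.31, adjusted p = 0.000116). The smallest rise was that of the general macrophage marker Cd68, at 0.58 (SE 0.13, adjusted p = 0.011). The groups did not overlap for 12 of the 14 genes, the exceptions being Spp1, osteopontin (1.26), and Cd68. Over all genes 4.74% had no overlap on the higher side. The sum of normalised intensities over the list, on the linear scale, was 12.7 to 36.3 in chow mice and 65.0 to 119 in atherogenic mice. The count was 14 without chow mouse D and 13 without atherogenic mouse A, where Ctsl, cathepsin L, lost its call (adjusted p = 0.0524), and 12 with the knockout mice fitted alone.

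Most Kupffer cell markers rose and 1 fell. Of 14 measured, 9 were higher and 1 lower, with a median of 1.101, and the summed intensity was 25.5 to 40.8 on chow and 64.6 to 85.2 on the atherogenic diet. Cd5l, a secreted lipid-binding protein of resident macrophages, went from 0.00, -1.36, -0.20, -3.09 and -0.66 to 1.63, 2.55, 1.85, 2.19 and 2.50 (difference 3.20, SE 0.40, adjusted p = 5.75e-05). Vsig4, a complement receptor of Kupffer cells, rose by 1.81 (SE 0.25, adjusted p = 0.000131), and the other probe of the gene gave 2.02. The 3 chains of complement C1q rose by 1.18 (C1qa), 1.44 (C1qb) and 1.79 (C1qc), Csf1r, the receptor of the macrophage growth factor, by 1.02, and Emr1, which encodes F4/80, by 2.24. Clec4f, a lectin held to be specific to Kupffer cells in mice, rose by 0.85 (SE 0.21, adjusted p = 0.0171), from a chow range of 0.59 to 0.96 to an atherogenic range of 1.36 to 1.85.

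Cd163, the haemoglobin scavenger receptor, went against its list. It stood at 1.18, 1.25, 0.90, 2.02 and -1.10 on chow and at -3.15, -4.09, -3.41, -3.40 and -2.67 on the atherogenic diet. Every atherogenic mouse lay below every chow mouse, and chow mouse E was the lowest on chow. The fall was 4.19 (SE 0.59, adjusted p = 0.000175), or 18.3-fold. Timd4, a receptor of long-lived resident Kupffer cells, measured 0.69 (adjusted p = 0.273) and Marco, a scavenger receptor, 1.31 (adjusted p = 0.194), with overlapping groups. Without chow mouse D the list still counted 9 higher and 1 lower.

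Of 20 markers of monocytes and dendritic cells 12 were higher and 0 lower, with a median of 1.04 and a summed intensity of 6.06 to 10.4 on chow and 18.96 to 28.1 on the atherogenic diet. Clec7a, the beta-glucan receptor dectin-1, went from -1.19, -2.99, -0.97, -3.46 and -1.64 to 1.18, 2.24, 0.66, 1.88 and 1.94 (difference 3.63, SE 0.42, adjusted p = 2.35e-05). Tyrobp, the adaptor that signals for Trem2, rose by 1.66 (SE 0.20, adjusted p = 3.39e-05), Mpeg1, a pore-forming protein of phagocytes, by 1.83, Laptm5, a lysosomal membrane protein of leukocytes, by 1.95, and the scavenger receptor Msr1 by 1.78. Receptors that mark circulating monocytes and their recruitment did not pass: Ccr2 measured 0.08 (adjusted p = 0.86), Ly6c2 0.34 (adjusted p = 0.50), Itgam, which encodes CD11b, -0.06 (adjusted p = 0.82), and Cx3cr1 0.66 (adjusted p = 0.10). The count was 11 without chow mouse D.

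**Figure D2:**
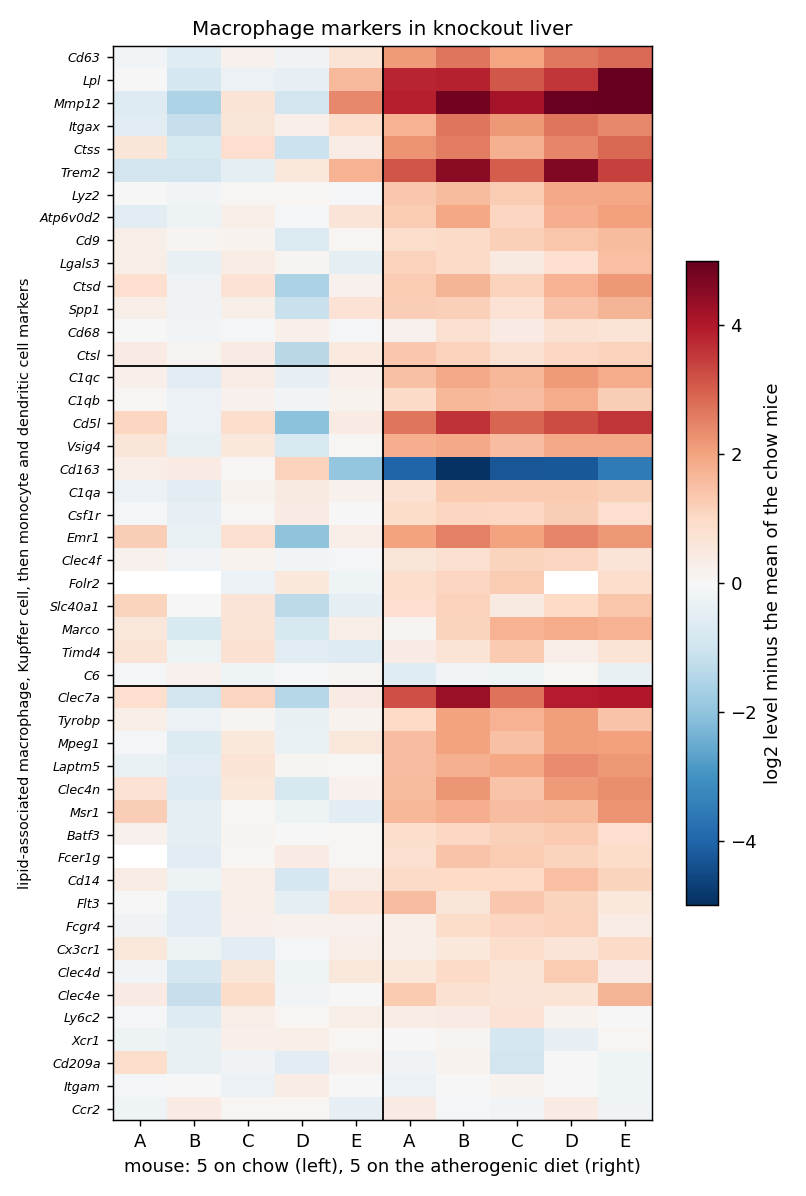
Log2 Cy5 intensity of the macrophage and monocyte markers (rows) in each knockout mouse (columns, 5 on chow left of the line and 5 on the atherogenic diet right of it) minus the mean of the chow mice; colour gives the difference, red higher and blue lower, and white cells have no value. The lipid-associated macrophage markers in the top block are red to varying depth on the right, Cd163 is the blue row of the middle block, and Xcr1, Cd209a, Itgam and Ccr2 at the bottom stay pale.

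Other leukocytes showed few calls. Of 13 neutrophil markers 1 was higher, Lcn2, which hepatocytes also express. The granule gene Ngp measured 0.74 (adjusted p = 0.621), with atherogenic mouse A at 2.56 and the other 4 between -3.15 and -1.47, and S100a8 measured 0.79 (adjusted p = 0.426). The summed intensity of the neutrophil list was 1.18 to 5.44 on chow and 1.53 to 26.1 on the atherogenic diet. Of 19 T and NK cell markers 1 was higher, the interleukin-7 receptor Il7r (0.87, adjusted p = 0.0208; 0.0532 without atherogenic mouse D), and the median was 0.03. Of 11 B cell markers 1 was higher, Cd22, an inhibitory receptor (1.37, SE 0.20, adjusted p = 0.000197), while Ms4a1, which encodes CD20 (0.07), did not pass. Of 12 genes of MHC class II presentation 4 were higher: H2-Eb1 (1.70), H2-Ab1 (1.78) and H2-Aa (1.47), which encode class II chains, and the costimulator Cd86 (1.16). The invariant chain gene Cd74 measured -0.22 (adjusted p = 0.56).

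Chemokine genes rose in part. Of 24 chemokines and cytokines 10 were higher and 0 lower, with a median of 0.76. The summed intensity of the list overlapped between diets, at 4.03 to 13.2 on chow and 5.84 to 9.79 on the atherogenic diet, and Cxcl13, which attracts B cells, measured -1.50 (adjusted p = 0.166). Ccl6, a myeloid chemokine, went from -4.35, -5.50, -4.62, -5.71 and -4.43 to -3.37, -2.57, -2.76, -2.71 and -2.91 and rose by 2.06 (SE 0.24, adjusted p = 3.39e-05). Cxcl1, which attracts neutrophils, went from -3.61, -2.55, -2.52, -2.47 and -2.81 to -0.95, -0.45, -0.64, -0.81 and -0.23, and rose by 2.18 (SE 0.49, adjusted p = 0.00923). Neither gene overlapped between diets. Ccl3, a macrophage chemokine, rose by 2.18 (SE 0.46, adjusted p = 0.00586), Cxcl16, a scavenger receptor and chemokine, by 1.37 (SE 0.23, adjusted p = 0.000978) and Il6, interleukin-6, by 1.34 (SE 0.18, adjusted p = 8.93e-05).

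Ccl2, which recruits monocytes, rose by 1.92 and overlapped between diets (adjusted p = 0.0249; 0.0716 without chow mouse B). Ccl4 (1.76; 0.0884 without chow mouse B), Ccl7 (2.36; 0.101 without chow mouse B), Ccl9 (0.79; 0.087 without atherogenic mouse E) and Cxcl2 (1.15; 0.0884 without chow mouse D) were called with all mice and lost the call as shown. Tnf measured 0.52 (adjusted p = 0.53) and Il1b 0.76 (adjusted p = 0.18). The count was 5 without chow mouse B and 6 without chow mouse D or atherogenic mouse B, D or E.

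Of 20 acute phase genes 5 were higher and 0 lower, with a median of 0.40. Lcn2, which binds bacterial iron carriers, rose by 1.55 (SE 0.35, adjusted p = 0.00937), Hpx, the haem carrier hemopexin, by 1.00 (SE 0.22, adjusted p = 0.0075) and Orm3, an orosomucoid, by 0.97 (SE 0.24, adjusted p = 0.0161). The serum amyloid genes Saa1, whose probe may also read its near-identical copy Saa2, and Saa3 rose by 1.85 (adjusted p = 0.0399; 0.105 without chow mouse B) and 1.81 (adjusted p = 0.0434; 0.113 without chow mouse D). The count was 3 without chow mouse B, chow mouse D or any 1 of the 5 atherogenic mice. Crp (0.00) and Hamp, hepcidin (0.04), did not pass. Of 22 interferon response genes 4 were higher and 1 lower, with a median of 0.25. The antiviral gene Mx1 went from a chow range of -4.43 to -2.96 to an atherogenic range of -1.75 to -1.08 and rose by 2.27 (SE 0.24, adjusted p = 1.09e-05), and Bst2, tetherin, rose by 1.16 (SE 0.28, adjusted p = 0.0154). Mx2, the near relative of Mx1, fell by 0.49 (adjusted p = 0.0481; 0.115 without chow mouse E). Isg15 and Ifit1 measured -0.02 and -0.06. The count of higher genes was 2 without chow mouse B or atherogenic mouse E.

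Genes of collagens and extracellular matrix rose. Of 24 measured 13 were higher and 0 lower, with a median of 0.62, and 12 of them separated the diets (4.74% of all genes did on the higher side). Col1a1, a chain of fibrillar collagen I, went from -3.42, -3.32, -2.30, -2.66 and -1.75 on chow to -1.29, -0.66, -0.68, 0.25 and -1.06, and Col1a2, its partner chain, from -1.51, -1.86, -1.33, -1.58 and -1.35 to -0.56, 0.08, -0.37, 0.27 and -0.39. Atherogenic mouse D was highest for both chains, and no chow mouse reached the atherogenic mice. The rises were 2.00 (SE 0.35, adjusted p = 0.00148) and 1.33 (SE 0.20, adjusted p = 0.000305).

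Col6a3, a microfibrillar collagen, rose by 1.69 (SE 0.32, adjusted p = 0.0026), Lum, lumican, by 1.57 (SE 0.30, adjusted p = 0.00295), Lox, the collagen cross-linking lysyl oxidase, by 1.32 on a dim probe (SE 0.26, adjusted p = 0.00403), and Col4a2, of basement membranes, by 0.71 (SE 0.13, adjusted p = 0.00194). Col3a1, the chain of collagen III, measured 0.52 (adjusted p = 0.67) and Bgn, biglycan, -0.93 (adjusted p = 0.18). The summed intensity of the matrix list was 25.3 to 34.96 on chow and 42.6 to 61.4 on the atherogenic diet. The count was 13 without chow mouse D and 11 to 13 without any 1 mouse.

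Of 20 matrix proteases and inhibitors 6 were higher and 0 lower. Beside Mmp12, Adam8, a metalloprotease of leukocytes, rose by 2.41 (SE 0.33, adjusted p = 0.000131), Adamts2, which trims procollagen, by 1.11 (SE 0.22, adjusted p = 0.00343), Mmp2, gelatinase A, by 1.09 (n = 5 and 4; limma adjusted p = 0.0175) and Plat, tissue plasminogen activator, by 0.85 (SE 0.21, adjusted p = 0.0149). Timp1, the inhibitor often raised with fibrosis, measured 0.35 (adjusted p = 0.33). Stellate cell and myofibroblast markers gave 2 calls of 17: Vim, vimentin, which leukocytes also express, rose by 1.87 (SE 0.23, adjusted p = 5.75e-05) and Tgfbi by 0.71 (adjusted p = 0.0433; 0.115 without chow mouse B). Acta2, the smooth muscle actin that marks activated stellate cells, measured 0.08 with a 95% interval of ± 0.54 (adjusted p = 0.88), and Pdgfrb, their growth factor receptor, 0.44 (adjusted p = 0.14). The stellate count was 1 to 4 without any 1 mouse, and 5.49% of all genes were called higher. The summed intensity of the stellate list was 11.4 to 15.9 on chow and 16.6 to 22.1 on the atherogenic diet.

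Of 18 cholangiocyte and ductular genes 2 were higher, Spp1 and the dim Prom1 (1.30, SE 0.31, adjusted p = 0.0126), and the keratins Krt19 and Krt7 measured -0.52 and -0.08; the count was 4 without chow mouse E. Of 14 sinusoidal endothelial genes 1 was higher, Cd34 (0.58, adjusted p = 0.0227; 0.0609 without chow mouse B), while Stab2 and Lyve1, receptors of these cells, measured 0.07 and 0.38. Of 20 lysosomal genes 9 were higher and 0 lower, with a median of 0.55, against 5.49% higher over all genes. Ctss, named above, is among the 9. Lgmn, the protease legumain, went from 2.12, 1.77, 2.07, 2.11 and 2.20 to 3.32, 3.75, 3.52, 3.73 and 3.71 and rose by 1.55 (SE 0.14, adjusted p = 3.16e-06). Hexa, a hexosaminidase chain, rose by 0.75, and Ctsk, cathepsin K, by 1.03 on a dim probe. Lipa, lysosomal acid lipase, measured -0.07 (adjusted p = 0.79). The count was 7 to 10 without any 1 mouse, and 5 with median centring.

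Cell cycle genes rose at low levels. Of 23 measured 9 were higher and 1 lower, with a median of 0.61. Birc5, survivin, went from -3.09, -3.17, -3.44, -3.86 and -3.60 to -2.35, -1.70, -2.08, -2.41 and -0.88 and rose by 1.55 (SE 0.31, adjusted p = 0.00424). Cdc20, which starts anaphase, went from -2.60, -2.77, -2.42, -2.59 and -3.08 to -2.17, -0.65, -1.23, -1.48 and 0.14 and rose by 1.61 (SE 0.33, adjusted p = 0.00502). Atherogenic mouse E was highest for both genes. Plk1, a mitotic kinase, rose by 1.11 (SE 0.22, adjusted p = 0.00395), Top2a, topoisomerase II alpha, by 0.90 (SE 0.20, adjusted p = 0.00757), Ccnb2, a mitotic cyclin, by 1.39 (SE 0.33, adjusted p = 0.012) and Ccnd1, cyclin D1, by 1.55 with overlap (SE 0.34, adjusted p = 0.00739). Mki67, which encodes the marker Ki-67, rose by 0.59 (adjusted p = 0.0485; 0.125 without atherogenic mouse E), and Ccne2, cyclin E2, fell by 0.75 (adjusted p = 0.0473; 0.099 without atherogenic mouse A). The higher count was 9 without chow mouse D and 7 to 10 without any 1 mouse.

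Chaperones and regulators of endoplasmic reticulum stress were lower in part: 5 of 20 fell and 1 rose, with a median of -0.34. Manf, a secreted protein induced by this stress, stood at 3.48, 3.66, 3.42, 3.36 and 3.55 on chow and at 2.16, 2.36, 2.53, 2.72 and 2.77 on the atherogenic diet, a fall of 0.99 with no overlap (SE 0.14, adjusted p = 0.000204). Dnajc3, a co-chaperone, fell by 0.67 (SE 0.15, adjusted p = 0.00967). Creld2 (-0.85; 0.0663 without chow mouse B), Sel1l, of the degradation machinery (-0.49; 0.0841 without chow mouse B; -0.23 by its other probe), and Sdf2l1 (-0.63; 0.09 without atherogenic mouse A) fell with all mice, and the dim stress factor Atf3 rose by 0.71 (adjusted p = 0.0377; 0.0898 without atherogenic mouse D). The central chaperone Hspa5, BiP, measured -0.41 (adjusted p = 0.20), Xbp1 0.07 and Ddit3, CHOP, -0.17. The lower count was 2 without chow mouse B or E, 3 without atherogenic mouse A, 7 without chow mouse D, and 1 with the knockout mice fitted alone.

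Amino acid disposal genes were called higher in part. Of 14 genes of the urea cycle and amino acid catabolism 5 were higher and 1 lower, with a median of 0.67. Ass1, argininosuccinate synthase, stood at 3.16, 3.03, 3.31, 2.97 and 3.26 on chow and at 3.87, 3.95, 3.94, 3.71 and 3.92 on the atherogenic diet, a rise of 0.73 with no overlap (SE 0.14, adjusted p = 0.00343), and 0.83 by its other probe. Sds, serine dehydratase, rose by 0.75 (SE 0.16, adjusted p = 0.00768). Hal, histidine ammonia-lyase, rose by 0.92 (adjusted p = 0.0258; 0.0574 without atherogenic mouse A), and Asl, the next step after Ass1, by 0.94 (adjusted p = 0.035; 0.0913 without atherogenic mouse A). Hpd, of tyrosine breakdown, fell by 0.66 (adjusted p = 0.0337; 0.0877 without atherogenic mouse E). The higher count was 3 without atherogenic mouse A, 2 with the knockout mice fitted alone and 0 with median centring.

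Other hepatocyte functions gave scattered calls. Of 11 plasma protein genes of hepatocytes 0 were called, by limma, while 4 had an unadjusted p under 0.05, and Alb, albumin, measured -0.24 (adjusted p = 0.43). Of 21 drug-metabolising P450 genes 3 were higher: Cyp2c70, which hydroxylates bile acids in mice, rose by 1.61 (SE 0.25, adjusted p = 0.000368), Cyp2c55 by 2.60 (SE 0.54, adjusted p = 0.00575) and Cyp2e1 by 0.78 (n = 5 and 4; limma adjusted p = 0.0486; 0.162 without atherogenic mouse A). The P450 count was 6 without chow mouse A, and 5.49% of all genes were called higher. Of 14 NRF2 and glutathione genes 3 were higher, with Akr1b7 at 3.45, Gsta2 at 1.31 (0.0917 without atherogenic mouse E) and Gstm2 at 1.07 (0.0842 without atherogenic mouse E). Nqo1, the classic NRF2 target, measured -0.26 (adjusted p = 0.33), and the count was 1 without chow mouse E or atherogenic mouse B or E and 5 without chow mouse A, chow mouse C or atherogenic mouse C. Of 12 glucose and glycogen genes 2 were higher, Pygl, glycogen phosphorylase (0.84, SE 0.19, adjusted p = 0.00928), and the glucose transporter Slc2a2 (0.90, adjusted p = 0.0408; 0.117 without atherogenic mouse E).

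Of 14 male-biased and growth hormone dependent genes 2 were lower: Igfals, which binds the IGF complex in plasma, fell by 0.95 (SE 0.21, adjusted p = 0.00811), and Mup1, a major urinary protein, by 2.12 with overlap (SE 0.53, adjusted p = 0.0172). Major urinary protein genes are near-identical copies, so probes of Mup1 and Mup6 may read one another and other members. Of 25 oxidative phosphorylation genes 1 was higher, Sdhb (0.67, adjusted p = 0.046; 0.13 without atherogenic mouse E), and 1 lower, Uqcrq (-0.84, adjusted p = 0.0198; 0.0622 without atherogenic mouse A), and the median was -0.00. Of 18 circadian genes 1 was higher, Per2 (1.18, adjusted p = 0.0321; 0.0728 without atherogenic mouse A), and of 14 immediate early genes 3 were higher, Klf6 (1.03, SE 0.17, adjusted p = 0.000764), Myc (1.05, SE 0.24, adjusted p = 0.00951) and Atf3. Markers of tissues that could be carried along with liver gave few calls. Of 6 erythroid genes 1 was higher (Alas2, 0.68), of 15 genes of pancreas, fat and gut 2 were lower (Lgals4, -0.81, and Plin1, -0.55), and of 8 muscle genes 1 was lower (Tnnc2, -0.84); the adjusted p of the last 3 reached 0.107, 0.107 and 0.105 without atherogenic mouse E.

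**Figure D3:**
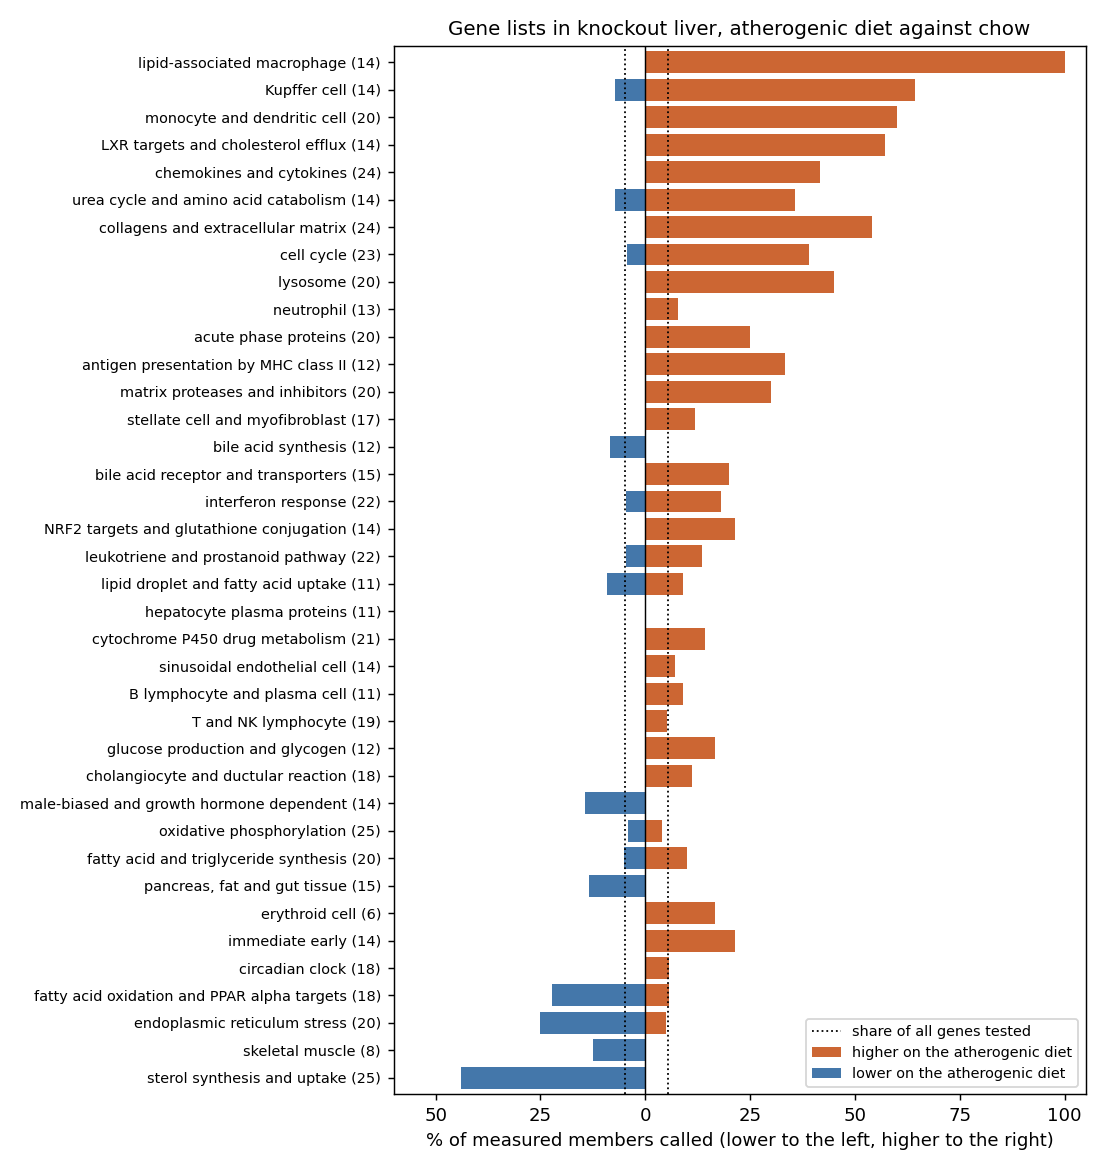
Share of measured members (number in parentheses) of each gene list called higher (orange, to the right) or lower (blue, to the left) in knockout liver on the atherogenic diet, in % on the x axis, with lists ordered by their median difference; dotted lines mark the shares over all genes, 5.49% higher and 4.83% lower. Lipid-associated macrophage markers reach 100% higher at the top, and sterol synthesis genes are the longest bar to the left at the bottom.

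Of 22 leukotriene and prostanoid genes 3 were higher and 1 lower, with a median of 0.24. The shares over all genes were 5.49% higher and 4.83% lower. The enzyme missing in these mice starts only the leukotriene branch. Pla2g4a, the phospholipase that releases arachidonic acid, stood at -2.71, -4.17, -2.65, -6.18 and -4.09 on chow and at -2.15, -2.13, -2.79, -2.08 and -1.73 on the atherogenic diet, with overlap through atherogenic mouse C. It rose by 1.78 (SE 0.50, adjusted p = 0.0318; 0.0758 without atherogenic mouse E). Cysltr1, a receptor of cysteinyl leukotrienes, rose by 0.72 (SE 0.20, adjusted p = 0.0292; 0.0841 without chow mouse B), with no overlap, and Ptgds, a prostaglandin D synthase, by 1.58 (SE 0.48, adjusted p = 0.0422; 0.0876 without atherogenic mouse C). Ptges, a prostaglandin E synthase, fell by 1.13 (SE 0.34, adjusted p = 0.0394; 0.103 without chow mouse B).

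The partners of the missing enzyme did not pass. Alox5ap, the protein that presents arachidonic acid to 5-lipoxygenase, stood at -2.26, -2.77, -2.26, -3.48 and -2.70 on chow and at -1.36, -2.36, -1.98, -1.82 and -2.02 on the atherogenic diet, a difference of 0.78 with a 95% interval of ± 0.57 (adjusted p = 0.0756). Most atherogenic mice lay above the chow mice, and mouse B lay among them. Lta4h, which makes leukotriene B4, measured 0.47 (adjusted p = 0.22), Ltc4s, leukotriene C4 synthase, -0.02 (adjusted p = 0.97), and the leukotriene B4 receptor Ltb4r1 -0.42 (adjusted p = 0.14). The Alox5 probe itself measured 0.55 (adjusted p = 0.0928, n = 5 and 4, by limma). The higher count was 0 without chow mouse B, atherogenic mouse B or D, 1 without chow mouse E or atherogenic mouse E, and 5 without chow mouse A.

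The 12 largest rises among genes whose diets did not overlap, with predicted and clone-named genes left out, held 5 members of the macrophage and monocyte lists. They were Mmp12, Lpl, Trem2, Clec7a, Cd5l and Abcg1, given above, with Siglec5, a sialic acid-binding lectin of leukocytes (3.71), Egr2, a transcription factor of macrophage and nerve (3.63), Akr1b7, an aldo-keto reductase (3.45, n = 4 and 5), Gdf3, a growth factor of the TGF-beta family (3.40), Omd, the matrix proteoglycan osteomodulin (3.06), and Lyz1, a lysozyme closely alike in sequence to Lyz2 (3.03). The adjusted p-values of these 12, by limma, lay between 3.16e-06 for Omd and 0.000415 for Egr2, and leaving out 1 mouse ended none of the calls. Siglec5, Gdf3, Omd, Egr2 and Mmp12 were dim on chow, with deposited medians of 0.01, 0.01, 0.02, 0.02 and 0.03, where rounding leaves few steps. They reached 0.14, 0.18, 0.20, 0.26 and 1.06 on the atherogenic diet. Lyz1 and Akr1b7 had chow medians of 0.06 and 0.095. Akr1b7 went from -4.17, -3.37, -3.33 and -2.69 in chow mice B to E, with no value in A, to -0.93, 0.46, 0.83, -0.31 and 0.26.

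The 12 largest falls were of mixed kinds. Sult3a1, a sulphotransferase, fell most, from 0.08, 2.30, 2.47, 1.12 and -0.04 on chow to -2.62, -3.96, -3.66, -3.12 and -5.08 on the atherogenic diet. That is a difference of -4.87, or 29.3-fold (SE 0.53, adjusted p = 1.32e-05), with no overlap. The deposited median of Sult3a1 was 1.88 on chow and 0.08 on the atherogenic diet. Cd163, Sqle, Cyp8b1 and Tm7sf2 are given above. A1bg, a plasma protein of the immunoglobulin superfamily, fell by 3.66 (SE 0.57, adjusted p = 0.000435), with atherogenic mouse E at -0.70 and the others between -3.11 and -2.55. Mup6, a major urinary protein, fell by 2.90 (n = 4 and 4; SE 0.38, limma adjusted p = 0.000132), although the other probe of the gene gave -1.74.

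Lamb3, a laminin chain of epithelial basement membranes, stood at 1.98, 2.94, 2.27, 3.45 and 2.11 on chow and at 1.08, 0.11, 0.87, 0.15 and -0.22 on the atherogenic diet, a fall of 2.15 (SE 0.32, adjusted p = 0.00031). Pdilt, a protein disulphide isomerase relative known from testis, fell by 1.75 (SE 0.20, adjusted p = 2.74e-05). Ndp, the Wnt agonist norrin, fell by 2.00 over 3 mice in each group (limma adjusted p = 0.0433; 0.152 without chow mouse D). Hao2, a peroxisomal hydroxyacid oxidase, fell by 1.89 (adjusted p = 0.0299; 0.0666 without atherogenic mouse A), and the dim RNA-binding protein gene Elavl3 by 1.80 (n = 5 and 3; limma adjusted p = 0.0233; 0.102 without atherogenic mouse C).

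**Figure D4:**
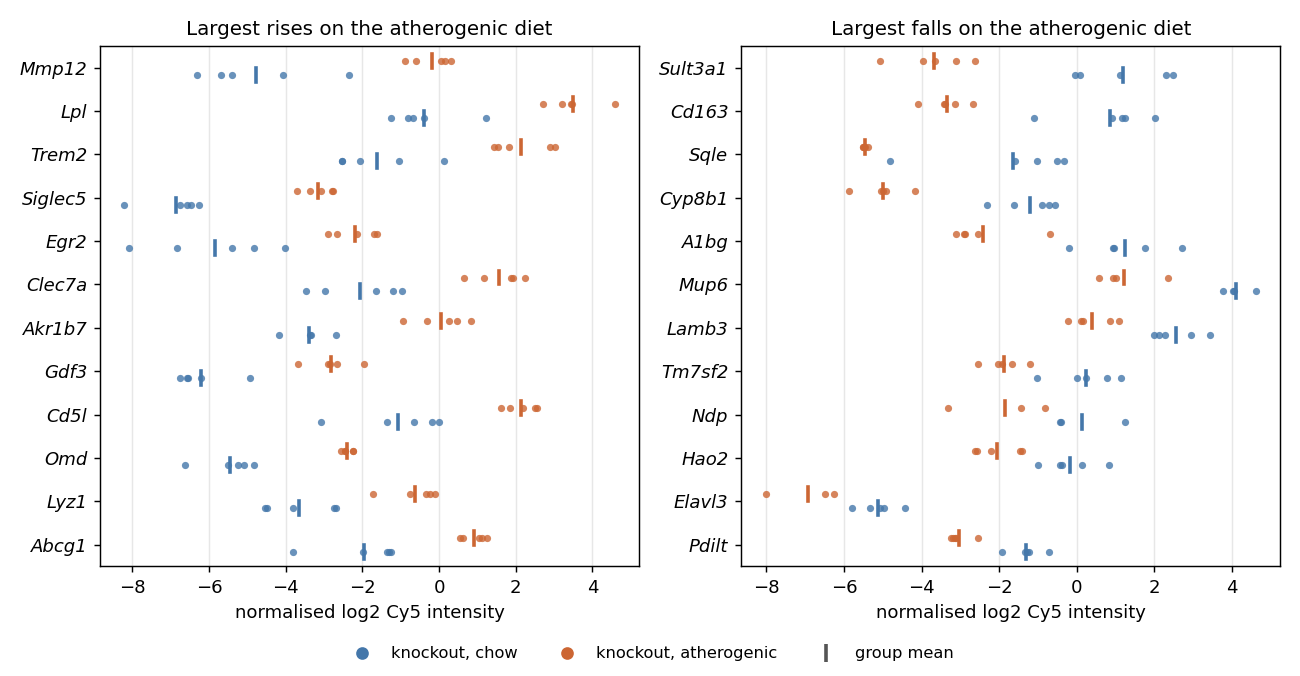
Normalised log2 Cy5 intensity (x axis) of the 12 genes with the largest rises (left panel) and the 12 with the largest falls (right panel) on the atherogenic diet among called genes with no overlap, with 1 point per knockout mouse, blue for chow and orange for the atherogenic diet, and a bar at each group's mean. Points of the diets are separate for every gene because the genes were chosen so; Omd, Sqle and Pdilt show the narrowest spread among atherogenic mice.

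Whether the diet acted differently without 5-lipoxygenase was tested as the difference between the knockout and the wild-type diet effects, and limma called 0 of 23344 probes. Before adjustment 1442 probes had a p below 0.05, and 0.490 was the lowest adjusted p. Without wild-type atherogenic mouse D 14 probes were called. In wild type the diet called 961 genes higher (5.17%) and 512 lower (2.75%), 1473 in all (7.92%), with a median over all genes of -0.05, and in probes 4.62% higher and 2.54% lower (7.16%). The wild-type count of 1671 probes was 914 without wild-type atherogenic mouse A, 982 without wild-type atherogenic mouse B and 2736 without knockout chow mouse D. Among wild-type probes called, 64.6% were higher with the main scaling and 42.2% with median centring, which moved the median of all wild-type probes from -0.04 to -0.18. In both genotypes 776 genes were called, all in the same direction: 40.4% of the knockout calls and 52.7% of the wild-type calls. Of the knockout calls 97.2% had the same sign in wild type, against 70.4% of all genes. Across 18606 genes the diet differences of the genotypes correlated at 0.651 (Pearson) and 0.571 (Spearman). These are descriptions, since genes are not independent replicates and all 19 arrays were normalised together.

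Group counts lay close in most lists. In wild type 12 of 14 lipid-associated macrophage markers were higher (median 2.07), 9 of 14 Kupffer markers higher and 1 lower (1.33), 8 of 14 LXR targets higher (0.99), 8 of 25 sterol genes lower (-0.64) and 11 of 24 matrix genes higher (0.61). Mmp12 differed by 5.80 in wild type and 4.58 in knockout, Cd163 by -3.80 and -4.19, Sqle by -4.44 and -3.81, and Abcg5 by 1.75 and 2.03. Lists whose counts of higher or of lower members differed by at least 4 were those of the acute phase, 9 of 20 higher in wild type against 5 in knockout, of neutrophils, 6 of 13 against 1, of ductular genes, 6 of 18 against 2, of the urea cycle and amino acid catabolism, 1 of 14 against 5, and of lysosomes, 5 of 20 against 9. The others were those of endoplasmic reticulum stress, 3 higher and 0 lower of 20 against 1 and 5, of the cell cycle, 3 of 23 higher against 9, and of male-biased genes, 6 of 14 lower against 2. No gene of these lists passed the test of the difference, so the counts do not show that the genotypes differed.

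Values of some genes stood apart between genotypes without passing. Manf measured -0.99 in knockout and -0.23 in wild type (adjusted p of the difference 0.508), Lcn2 1.55 and 2.96 (adjusted p of the difference 0.755), S100a8 0.79 and 2.62, and Mup1 -2.12 and -4.29 (adjusted p of the difference 0.734). Cyp7a1 measured -0.26 in knockout and fell by 2.15 in wild type (adjusted p = 0.0108), a difference of the effects of 1.89 with a 95% interval of ± 1.42 before adjustment. Omd measured 3.06 in knockout and 1.96 in wild type (adjusted p of the difference 0.79).

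The 5 lowest p-values for a higher diet effect in knockout belonged to Slc22a3, Tnrc6b, Cyp4f14, Susd4 and Slc16a5, all at an adjusted p of 0.490. Slc22a3, an organic cation transporter, stood at -1.04, -0.16, -0.61, 0.12 and 0.02 in chow knockouts and at 0.24, -0.35, -0.23, -0.28 and -0.29 in atherogenic knockouts. In wild type it went from 0.02, -0.18, 0.70, 0.39 and -0.09 to -1.37, -1.56, -1.28 and -1.04, so the diets overlapped in knockout and were separate in wild type. The difference of the effects was 1.63 (95% interval ± 0.66 before adjustment). Cyp4f14, a P450 that inactivates leukotriene B4, measured 0.23 in knockout (adjusted p = 0.497) and fell by 1.14 in wild type (adjusted p = 0.00263). Susd4, a complement regulator, measured -1.03 and -3.15, Tnrc6b, of microRNA silencing, 0.48 and -0.67 (its other probe gave 0.20 in knockout), and Slc16a5, a monocarboxylate transporter relative, 0.36 and -0.69.

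The 5 lowest p-values for a lower effect belonged to Grpr, Dmp1, Cthrc1, Cldn19 and Ostb, at the same adjusted p of 0.490. All but Ostb were dim, with deposited medians of at most 0.02 on chow. Ostb stood at -1.74, -1.08, -1.47, -0.99 and -2.40 in chow knockouts and at -1.36, -0.44, 0.86, -0.79 and -0.64 in atherogenic knockouts, and in wild type went from -2.99, -3.72, -2.51, -2.62 and -3.27 to 0.01, 0.24, 0.23 and 0.13. Knockout mice overlapped between diets and wild-type mice did not, and the effects were 1.06 and 3.17, a difference of -2.11 (95% interval ± 1.02 before adjustment). Grpr, the receptor of gastrin-releasing peptide, measured -1.08 in knockout and 1.89 in wild type, Dmp1, a matrix protein of bone, -0.67 and 0.83, Cthrc1, a secreted collagen-related protein, -0.39 and 1.33, and Cldn19, a claudin, fell by 0.95 in knockout (adjusted p = 0.00862) and measured 0.39 in wild type.

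**Figure D5:**
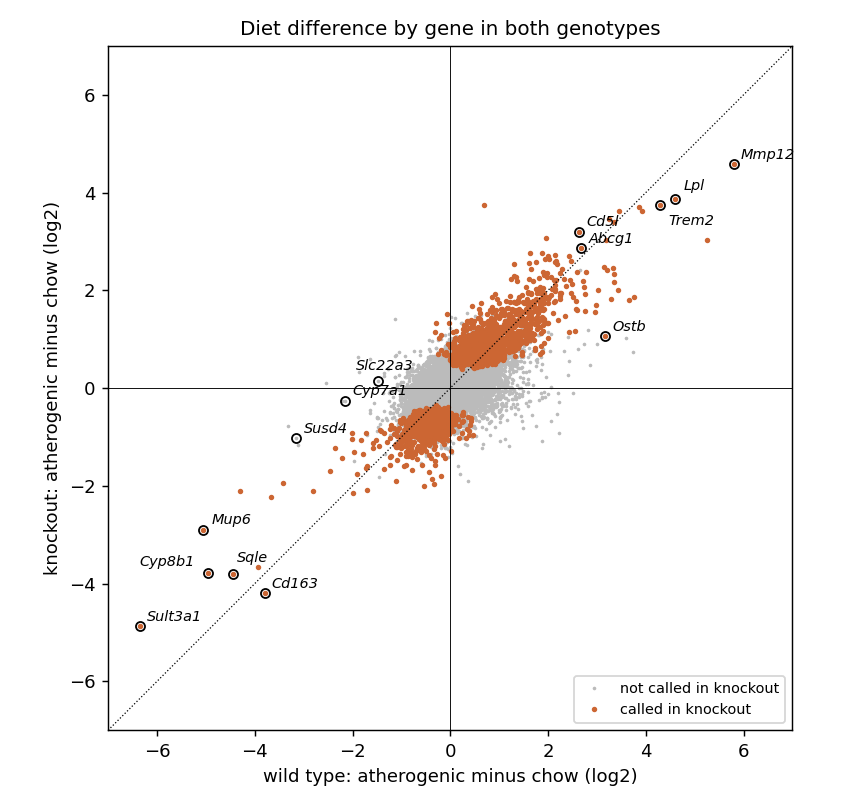
Log2 difference of the atherogenic diet from chow in wild type (x axis) and in knockout (y axis) for every gene tested, grey where the gene was not called in knockout and orange where it was, with a dotted line where both differences are equal; circles mark named genes. Most orange points lie in the quadrants where both genotypes moved the same way (97.2% of knockout calls), and Ostb, Slc22a3, Cyp7a1 and Susd4 lie away from the line.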

How the data were processed

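The authors deposited 1 table of Cy5 and Cy3 intensity values for 19 arrays of 2 colours, and the submitters' processing notes name Agilent Feature Extraction, version 8.5.1.1. Their background correction and scaling are not stated in the labels. Deposited intensities of at least 0.01 had at most 2 decimals. Column headers gave each array's group and not its sample, so mice were assigned to groups only, and 0 columns belonged to other samples. No 2 arrays held identical values. Each group's headers held 2 numbers, each shared by 2 or 3 mice of that group and by no other group. The labels do not say what mice with a number share, so p-values measure the spread between these mice, which were treated as independent.

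From the deposited intensities, log2 values were normalised by loess within arrays and Aquantile between arrays, and the Cy5 values were fitted with limma 3.58.1 (R 4.3.3) as 4 group means over the 19 mice. Probes with at least 3 values per group were tested (23344; 224 left out), with Benjamini-Hochberg adjustment over all of them. Levels are log2 intensities, and a fold is 2 to the power of a log2 difference. Lists used the brightest probe of a gene and ranked genes the probe with the lowest p. Of 18606 symbols 18255 matched RefSeq (GRCm38.p6), 1811 of them through a synonym, and 60 list members were not analysed here. The fit was tested on simulated data with independent noise, which held no outlying array, no rounding and no shared header numbers.

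Named genes were the 12 largest called rises and falls without overlap, up to 5 members per list with the lowest p and those that moved against their list, the leukotriene genes and Alox5, 5 genes per direction for the difference between genotypes, and 4 promoters. Further list members were named after their values were seen. Some list members are counted and not reported here by name. The comparison and the lists were chosen with earlier results of these data known. Alternatives covered normalisation, dim probes, missing values, the variance model, the mice fitted, the threshold and leaving out each mouse.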

Additional observations from a re-analysis of the deposited data

Results flagged for a closer look

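In 9 of 67 groups of mice examined for the named genes, 1 mouse lay far from the others by Dixon's criterion, which marks about 1 in 20 groups by chance. On chow these were mouse B for Siglec5 at -8.208 (others -6.77 to -6.27), mouse D for Abcg1 at -3.816 (others -1.99 to -1.26), mouse E for Sqle at -4.808 (others -1.60 to -0.32) and mouse A for Tnrc6b at -2.97 (others -2.51 to -2.38). On the atherogenic diet they were mouse E for A1bg at -0.6993 (others -3.11 to -2.55), mouse C for Pdilt at -2.559 (others -3.24 to -3.12), mouse A for Slc22a3 at 0.2358 (others -0.35 to -0.23), and mouse B for Slc16a5 at 0.01949 (others -0.43 to -0.31) and for Grpr at -10.28 (others -8.23 to -7.49). Chow mouse D, which stood apart over all probes, accounts for 1 of the 9.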

How the results depend on the processing

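The knockout diet effect of 2243 probes became 845 with the knockout mice fitted alone, 3446 with header numbers as a random block, chosen after seeing the data (consensus correlation -0.08), 717 at 2-fold or more and 660 at an adjusted p under 0.01. Leaving out 1 mouse gave 1159 to 3100. The wild-type effect of 1671 became 3073 with array weights, 2736 with knockout chow mouse D left out before normalisation, also chosen after seeing the data, 788 at 2-fold or more and 707 at an adjusted p under 0.01, and 914 to 2736 leaving out 1 mouse. The difference between genotypes gave 0 to 14. The 166 list calls became 96 with the knockout mice alone. A stricter threshold lowers counts by construction. With header numbers nested in groups, a negative correlation lowers the standard errors of group means, so the count of 3446 does not measure a stronger diet effect. The cause of the other changes was not tested. Of the 179 genes followed, 116 kept their call without any 1 mouse. Over the other alternatives 1582 of 1753 gene results kept their call, 171 lost it and 0 reversed. Median centring turned the share of higher probes among knockout calls from 54.5% to 46.4%. No paired analysis was possible because the columns carry no replicate numbers and no label states that mice of different groups were paired. Each mouse was on 1 diet, and no header number was shared between groups. Signal limits dim probes, since 55.3% of intensities lay below 0.1 and rounding leaves them few steps.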

Other observations

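A few genes outside the lists were picked out after their values were seen. Sult1e1, the oestrogen sulphotransferase, stood at -5.38, -4.52, -3.59, -4.28 and -1.69 in chow knockouts and at 0.22, -0.32, -2.03, 0.86 and 0.57 in atherogenic knockouts. The groups overlapped through chow mouse E and atherogenic mouse C, and the gene rose by 3.75 (SE 0.68, limma adjusted p = 0.0019). In wild type it measured 0.68 (limma adjusted p = 0.606), and the difference of the effects was 3.07 (limma adjusted p = 0.653). Ubd, a ubiquitin-like protein, rose by 3.03 in knockout (limma adjusted p = 0.00724) and by 5.25 in wild type, and Slc2a4, the insulin-regulated glucose transporter, by 2.77 (limma adjusted p = 9.81e-07) and 1.62. In chow knockouts the deposited medians were 0.06 for Sult1e1, 0.04 for Ubd and 0.03 for Slc2a4, so these values were coarse. The differences between genotypes did not pass for these genes.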
